A study of Homo sapiens with 6 samples.

Results

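A set of 28 genes of cholesterol synthesis, of its control by the SREBP transcription factors and of sterol transport was followed in RNA-seq values of erastin-treated ARPE-19 cells, an established human RPE line. The rows were taken by gene symbol, and all 28 symbols were found among the 33496 genes of the files. All 6 libraries came from cells of WT genotype that received erastin, a blocker of cystine uptake that induces ferroptosis (5 μM for 24 h). In the Era group, 3 libraries came from cells given erastin alone, and in the Era+VK group, 3 libraries came from cells given vitamin K1 (VK1, 10 μM) for 1 h before erastin. Untreated cells were not analysed here, and each difference sets erastin with VK1 against erastin alone. VK1 was dissolved in ethyl alcohol, and whether the Era cells received that solvent is not given in the sources used here. The labels give the cell line as ARPE-19 in the first library and count the number upwards in the others, while all titles name ARPE-19, and the 6 were treated as 1 line. The study speaks of independent experiments in general, but neither it nor the labels tie each library to a culture of its own, so p-values measure the spread between these libraries, which may be technical.

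Cells build cholesterol from acetyl-CoA. The mevalonate enzymes make the common precursor, the isoprenoid enzymes join its units into farnesyl and geranylgeranyl chains, and the sterol enzymes close the squalene chain into a ring and trim it to cholesterol. When sterols fall in the endoplasmic reticulum, the escort protein SCAP carries the SREBP factors to the Golgi, where they are cut free to enter the nucleus and raise the genes of the pathway. INSIG proteins hold SCAP back when sterols are plentiful. SREBF2 (SREBP2) chiefly serves cholesterol genes and SREBF1 (SREBP1) fatty acid genes. Cholesterol that arrives in lipoproteins leaves the lysosome through NPC2 and NPC1. RPE cells take up and recycle much sterol in the retina, and isoprenoid units also build the side chains of ubiquinone and of vitamin K2.

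Expression was measured as FPKM (fragments scaled to transcript length and to all mapped fragments), which the authors deposited with no counts, and library depth is therefore unknown. Between 24143 and 24601 genes per library were above 0 and between 11924 and 12027 reached 1 FPKM. Mitochondrially encoded genes held 16.0% to 18.5% of the FPKM of a library. Of 12 RPE markers, 5 (PMEL, MITF, OTX2, KRT8 and KRT18) reached 1 FPKM in all 6 libraries, while RPE65, the visual cycle isomerase that defines mature RPE, did not pass 0.02 FPKM in any. BEST1, another of the 12, varied widely within both groups, at 2.65, 0.65 and 56.98 FPKM in Era and at 36.45, 0.60 and 4.80 FPKM in Era+VK. Libraries Era+VK 2 and Era+VK 3 stood apart by red cell transcripts: 14 erythroid markers summed to 241 and 234 FPKM there, against 0.31 to 0.63 FPKM elsewhere, and 13 of the 14 were higher in both than in each of the other 4. The exception was HBM, and among the 13 the adult globin gene HBB did not pass 0.04 FPKM. Markers of fibroblasts (DCN and LUM at 0 in all libraries) summed to at most 0.88 FPKM and those of endothelium to at most 0.45 FPKM in any library. Of 4 immune markers, CD68 alone reached 1 FPKM in all libraries, and it was lower in Era+VK (34.52 to 38.38 FPKM) than in Era (43.27 to 50.72 FPKM), while PTPRC, which defines blood leukocytes, did not pass 0.14 FPKM. In bulk RNA, fewer cells of a type and less RNA per cell cannot be told apart. Therefore the median of all members, the members whose libraries did not overlap and those that reversed are also given for Era+VK 1 alone.

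The upstream sequences of a few members are shown because SREBP is known to raise genes of this pathway. SREBP is known to bind sterol regulatory elements (SRE) and to need the neighbouring factors NF-Y, which binds CCAAT boxes, and Sp1, which binds GC boxes. Sequences are those RefSeq gives for GRCh38.p14. They start 250 bases before the RefSeq start and end there or at the first base of the gene in GENCODE 29, whichever comes first. They are written 5′ to 3′ on the strand of the gene, with capitals for matches on either strand to the SRE core TCACNCCAC or to the inverted CCAAT box ATTGG. Shown are the genes of both SREBP factors and 4 of the 8 members whose libraries in Era+VK all lay above those in Era. Of those of the 8 not shown, MVK, HSD17B7 and SC5D had the inverted CCAAT box in a window of 250 bases and SCAP did not.
SREBF2, chr22:41832855-41833078, plus strand: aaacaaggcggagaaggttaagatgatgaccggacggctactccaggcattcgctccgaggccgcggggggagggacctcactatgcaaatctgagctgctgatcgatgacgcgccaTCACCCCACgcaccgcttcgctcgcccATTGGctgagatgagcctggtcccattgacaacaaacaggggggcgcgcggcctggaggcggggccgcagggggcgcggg
SREBF1, chr17:17837003-17837236, minus strand: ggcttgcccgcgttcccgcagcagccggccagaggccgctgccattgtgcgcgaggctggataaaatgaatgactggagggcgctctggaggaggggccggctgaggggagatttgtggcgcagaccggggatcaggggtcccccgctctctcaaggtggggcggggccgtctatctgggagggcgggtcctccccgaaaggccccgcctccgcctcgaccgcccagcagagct
HMGCS1, chr5:43313513-43313662, minus strand: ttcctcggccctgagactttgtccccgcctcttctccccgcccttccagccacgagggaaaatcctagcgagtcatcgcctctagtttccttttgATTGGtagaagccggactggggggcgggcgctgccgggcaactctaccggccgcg
TM7SF2, chr11:65111622-65111844, plus strand: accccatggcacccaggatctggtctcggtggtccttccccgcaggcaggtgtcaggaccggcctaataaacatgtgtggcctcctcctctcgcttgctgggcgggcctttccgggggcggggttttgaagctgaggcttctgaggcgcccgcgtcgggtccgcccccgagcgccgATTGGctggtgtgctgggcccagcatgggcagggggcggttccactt
NSDHL, chrX:152830813-152830966, plus strand: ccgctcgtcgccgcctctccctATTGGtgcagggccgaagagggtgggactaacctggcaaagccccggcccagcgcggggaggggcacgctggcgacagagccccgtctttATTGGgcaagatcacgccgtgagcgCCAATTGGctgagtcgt
STARD4, chr5:111512591-111512785, minus strand: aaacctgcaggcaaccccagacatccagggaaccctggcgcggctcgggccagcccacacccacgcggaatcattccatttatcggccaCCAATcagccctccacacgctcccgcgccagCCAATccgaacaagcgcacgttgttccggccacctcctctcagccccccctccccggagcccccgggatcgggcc
The SRE core was found in SREBF2 alone, from 133 to 125 bases before its RefSeq start, inside a match to a longer SRE of 10 bases. SREBF1 held neither marked motif. In the windows of 250 bases, 34 promoters of 25 members could be searched on both strands. The SRE core was in 1 of these 34 promoters (2.94%) and in 0.883% of all 35116 promoters. The inverted CCAAT box was in 20 of the 34 (58.8%) and in 32.0% of all promoters, and the GC box GGGCGG in 30 of the 34 (88.2%) and in 42.6% of all. The E-box CACGTG, which can also bind SREBP, was in 4 of the 34 (11.8%), those of INSIG1, SCAP and SC5D, and in 6.34% of all. A match describes these letters only, and several promoters belong to the same gene.

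All 28 members had a mean of at least 1 FPKM and were among the 11981 genes tested in limma on log2(FPKM + 1). Their levels in FPKM, which is a measure per length, spanned from MVK, the mevalonate kinase, with 1.62 FPKM on average over the 6 libraries, to NPC2, the soluble sterol carrier of the lysosome, with 70.4 FPKM. HSD17B7, a sterol keto-reductase, lay next to MVK with 1.74 FPKM, and the values of the 2 genes overlapped. SREBF2 was second to NPC2 with 47.2 FPKM, and no library of one reached the other. Of the synthesis enzymes, FDPS, which makes farnesyl chains, had the highest level (26.6 FPKM), followed by MSMO1 (24.3 FPKM), which removes methyl groups from sterols, and FDFT1 (23.6 FPKM), which makes squalene. The libraries of these 3 overlapped. SC5D (4.53 FPKM) and MVD (5.51 FPKM) lay between them and the 2 lowest genes.

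**Figure D1:**
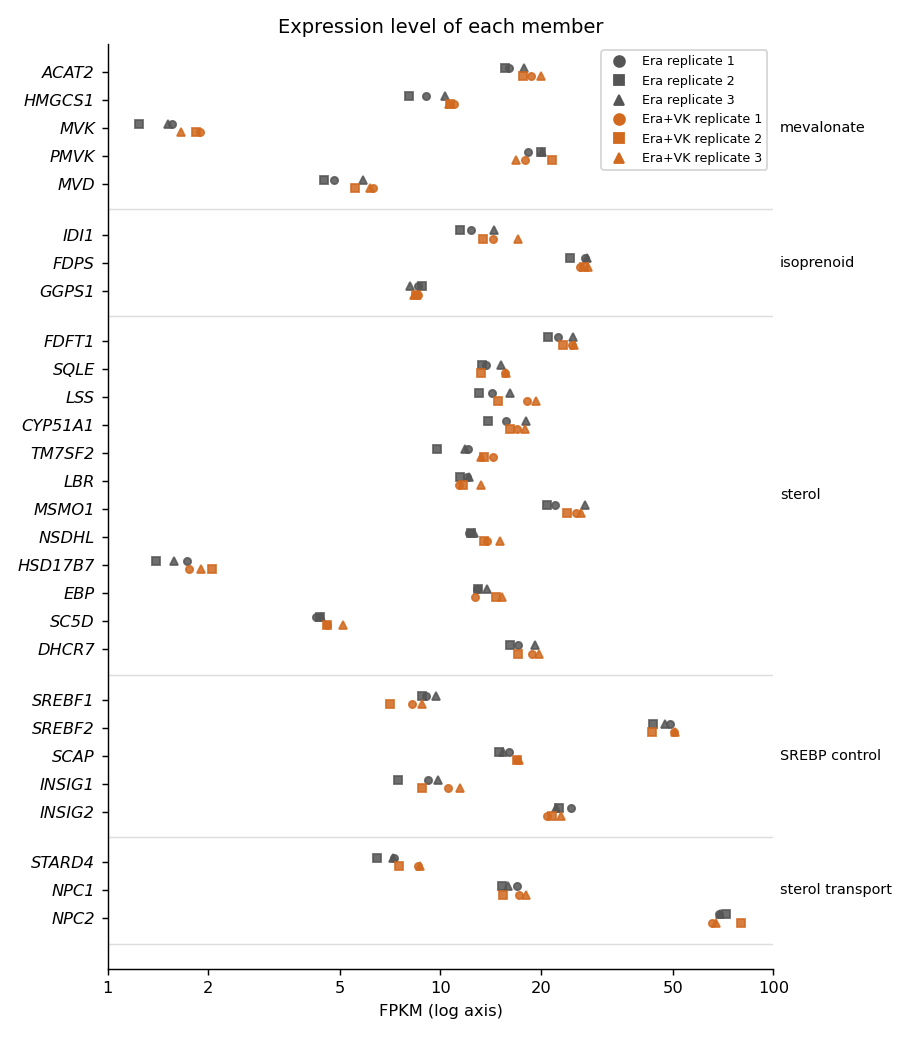
FPKM of each of the 28 members in each library on a log axis, grouped by pathway step, with Era in grey and Era+VK in orange. MVK and HSD17B7 sit near the left at 1.62 and 1.74 FPKM on average and NPC2 at the right at 70.4 FPKM, and for most members the 2 groups lie close together.

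In Era+VK, 24 of the 28 members had a higher mean and 4 a lower one (PMVK, GGPS1, SREBF1 and INSIG2), but no difference passed an adjusted p of 0.05 in limma. Of all genes tested, 0.618% passed, 0.134% higher and 0.484% lower. The smallest adjusted p of a member was 0.176 in limma, that of TM7SF2. An unadjusted p under 0.05 was found for 11 members (39.3%), 10 of them higher and 1, SREBF1, lower, and for 15.8% of all genes tested, 10.4% higher and 5.42% lower. No other tool was run. The count of 11 moved when single libraries were left out. It was 2 without Era 2, 5 without Era+VK 3, 6 without Era 1 and 7 without Era+VK 1. It was 12 and 13 without Era+VK 2 and Era 3. Of all genes, those past the adjusted threshold also fell, from 74 to 2 without Era 2, 3 without Era 1 and 5 without Era 3. Without an Era+VK library they were 42 to 71. The share of all genes with an unadjusted p under 0.05 was taken only for the main fit of all 6 libraries and under no alternative. A higher mean was found for 85.7% of the members and for 63.3% of all genes. After quantile normalization these were 23 members and 52.1% of all genes, and 5 members had an unadjusted p under 0.05. The median log2 fold change of the members was 0.10, and that of all genes tested was 0.03. Without Era 2, the median of the members was 0.06, and without Era 3 it was 0.16. In Era+VK 1, the library without red cell transcripts, 21 of the 28 members were above the mean of Era, with a median of 0.12, against 20 in Era+VK 2 and 23 in Era+VK 3. The part of the red cell transcripts in the values was not otherwise tested.

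**Figure D2:**
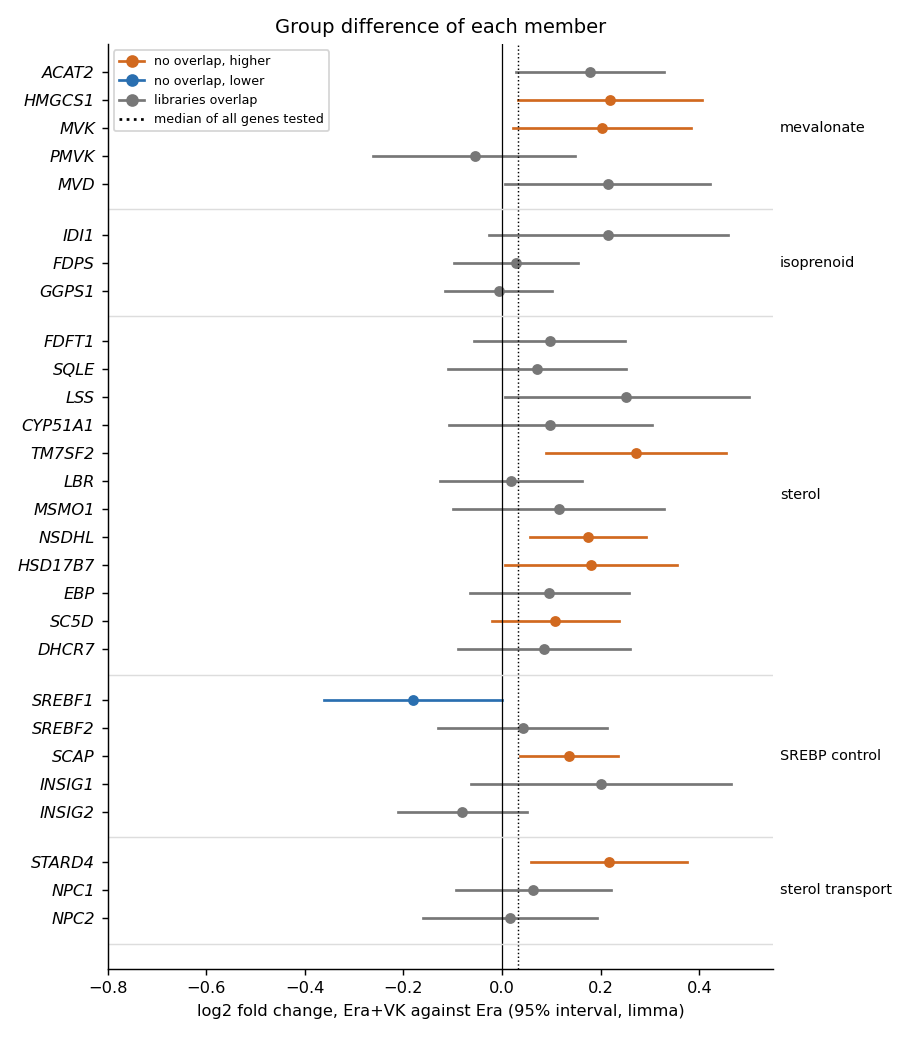
Log2 fold change of each member, Era+VK against Era, with its 95% interval in limma. Members whose libraries did not overlap between the groups are in orange (8 higher) or blue (1 lower), the others in grey, and the dotted line is the median of all genes tested, 0.03.

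The libraries of the groups did not overlap for 9 members (32.1%), 8 higher and 1 lower in Era+VK, whereas this was so for 22.1% of all genes tested, 15.1% higher and 7.04% lower. The count was 7 after quantile normalization. With fewer libraries to overlap, it was 17 without Era 3 and 18 without Era+VK 2. It was 9 without Era 1 or Era 2 and 10 without Era+VK 1 or Era+VK 3. The share of all genes tested was not taken under these alternatives. For each of these 9 the two-sided exact permutation p was 0.1, the smallest that 3 libraries against 3 can give. Groups that do not overlap always give this value, so it adds nothing to the lack of overlap. With Era+VK 1 as the only Era+VK library, the log2 fold change was 0.105 for HSD17B7, 0.065 for SC5D, 0.147 for NSDHL and 0.131 for SCAP. It was 0.245 for HMGCS1, 0.252 for MVK, 0.335 for TM7SF2, 0.265 for STARD4 and -0.145 for SREBF1. Gene positions refer to GRCh38 and were read from GENCODE 29 through the Ensembl identifier.

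The mevalonate step comprises 5 enzymes, of which 4 had a higher mean in Era+VK, with a median log2 fold change of 0.20. Without Era 2 that median was 0.14. None passed the adjusted threshold. HMGCS1 (ENSG00000112972, chromosome 5, 43289395 to 43313512) makes the intermediate that commits acetyl units to the pathway. It was at 9.03, 8.03 and 10.35 FPKM in Era 1, 2 and 3 and at 10.96, 10.68 and 10.60 FPKM in Era+VK 1, 2 and 3. The Era+VK values lay close together and just above the highest Era library. Its log2 fold change was 0.22 (standard error 0.08, adjusted p = 0.252 in limma), and 0.14 without Era 2. MVK (ENSG00000110921, chromosome 12, 109573255 to 109598117), which adds the first phosphate to mevalonate, was at 1.56, 1.24 and 1.52 FPKM in Era and at 1.90, 1.85 and 1.66 FPKM in Era+VK. At this low level all Era+VK libraries were above all Era libraries (log2 fold change 0.20, standard error 0.08, adjusted p = 0.276 in limma). With a pseudocount of 0.1 FPKM in place of 1, its log2 fold change was 0.31. In GENCODE 29, exons of MVK overlap those of MMAB on the opposite strand, and the sources used here do not say whether strand was used, so reads of the 2 genes may be mixed. ACAT2, the thiolase that joins acetyl units, and MVD, which removes a carboxyl group from mevalonate phosphate, had log2 fold changes of 0.18 and 0.21, with overlapping libraries. ACAT2 shares exon bases with TCP1 on the opposite strand, listed at up to 44.4 FPKM. Its longest exon overlap was 397 bases with TCP1, 1106 with SOD2 and 1309 with SOD2-OT1, all on the opposite strand. SOD2-OT1 was listed at up to 0.21 FPKM, and no value was found for SOD2 under its GENCODE 29 identifier. PMVK, which adds the second phosphate, was at 18.31, 20.01 and 20.16 FPKM in Era and at 17.93, 21.59 and 16.85 FPKM in Era+VK. It was the widest of the 5 in Era+VK, with both the highest and the lowest of the 6 values there, and its log2 fold change was -0.06 with a 95% interval from -0.26 to 0.15.

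The isoprenoid step had no member with separate groups, and its median log2 fold change was 0.03, close to that of all genes tested. It was 0.009 without Era+VK 3 and 0.06 without Era 3. IDI1, which isomerises the 5-carbon unit, was at 12.36, 11.42 and 14.50 FPKM in Era and at 14.38, 13.46 and 17.10 FPKM in Era+VK. Era 3 exceeded 2 of the 3 Era+VK libraries (log2 fold change 0.22, standard error 0.10, adjusted p = 0.366 in limma), and without Era+VK 3 the log2 fold change was 0.12. GGPS1, which makes geranylgeranyl chains, was at 8.54, 8.83 and 8.11 FPKM in Era and at 8.54, 8.47 and 8.32 FPKM in Era+VK. The groups lay within each other, with a log2 fold change of -0.01 and a 95% interval from -0.12 to 0.10. FDPS ranged from 24.5 to 27.6 FPKM over all 6 libraries, with a 95% interval of its log2 fold change from -0.10 to 0.15.

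The sterol step held 12 enzymes, and all 12 had a higher mean in Era+VK, with log2 fold changes from 0.02 (LBR) to 0.27 (TM7SF2) and a median of 0.10, although LBR was at -0.009 after quantile normalization. The median was 0.06 without Era 2 and 0.17 without Era 3. LBR and TM7SF2 both encode sterol C14 reductases, and they stood at the ends of this range. TM7SF2 (ENSG00000149809, chromosome 11, 65111845 to 65116384) was at 12.06, 9.77 and 11.81 FPKM in Era and at 14.35, 13.47 and 13.25 FPKM in Era+VK. Era 2 was the low value, and the 3 Era+VK libraries lay above the other 2 as well (log2 fold change 0.27, standard error 0.08, adjusted p = 0.176 in limma). LBR, which is also a receptor of the nuclear lamina, ranged from 11.3 to 13.2 FPKM over the 6 libraries, with a 95% interval of its log2 fold change from -0.13 to 0.16. Whether the 2 reductases differed in their response was not tested. NSDHL (ENSG00000147383, chromosome X, 152830967 to 152869729), which takes part in removing the methyl groups at C4, was at 12.20, 12.36 and 12.63 FPKM in Era and at 13.83, 13.52 and 15.04 FPKM in Era+VK. Its Era libraries were tight, and the gap to the lowest Era+VK library was larger than their whole range (log2 fold change 0.17, standard error 0.05, adjusted p = 0.180 in limma). HSD17B7 (ENSG00000132196, chromosome 1, 162790702 to 162812817) was at 1.73, 1.40 and 1.58 FPKM in Era and at 1.76, 2.06 and 1.91 FPKM in Era+VK. The lowest Era+VK value was only just above the highest Era value. Its pseudogene copy HSD17B7P2 was listed at 1.24 to 1.68 FPKM, a like level, so the division of reads between them is uncertain. SC5D (ENSG00000109929, chromosome 11, 121292453 to 121308694), the C5 desaturase, was at 4.24, 4.36 and 4.37 FPKM in Era and at 4.57, 4.56 and 5.10 FPKM in Era+VK, with Era+VK 3 the highest (log2 fold change 0.11, standard error 0.06, adjusted p = 0.390 in limma). Without Era+VK 3 it was 0.06.

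In the other 7 sterol enzymes besides LBR the groups overlapped. LSS, which closes the ring, had a log2 fold change of 0.25 with a 95% interval from 0.005 to 0.50. It was at 18.20 and 19.40 FPKM in Era+VK 1 and 3, but at 14.84 FPKM in Era+VK 2, within the Era range of 13.05 to 16.14 FPKM. CYP51A1, MSMO1 and DHCR7, which act on the ring after closure, had log2 fold changes of 0.10, 0.11 and 0.08. These rested on single libraries: they were 0.011, 0.043 and 0.033 without Era 2 and 0.189, 0.223 and 0.151 without Era 3. Without Era+VK 3, CYP51A1 was at 0.062 and DHCR7 at 0.042, and without Era+VK 2, DHCR7 was at 0.14. FDFT1 and SQLE, which make squalene and its epoxide, were at 0.10 and 0.07. FDFT1 was at 0.04 without Era 2 and 0.16 without Era 3, and SQLE lay between 0.032 (without Era+VK 3) and 0.147 (without Era+VK 2). SQLE was also at 0.035 without Era 2, at 0.034 without Era+VK 1 and at 0.126 without Era 3. EBP, a sterol isomerase, was at 0.10, at 0.045 without Era+VK 3 and at 0.169 without Era+VK 1. For EBP the direction came from Era+VK 2 and 3, since Era+VK 1 alone was at -0.05 against Era.

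Of the 5 genes of SREBP control, 3 had a higher and 2 a lower mean in Era+VK, with a median log2 fold change of 0.04. That median turned to -0.006 without Era 2, was 0.002 without Era+VK 3 and 0.007 without Era+VK 1, and reached 0.12 without Era+VK 2. SREBF2 (ENSG00000198911) ranged from 43.4 to 48.8 FPKM in Era and from 43.0 to 50.6 FPKM in Era+VK, and its log2 fold change was 0.04 with a 95% interval from -0.13 to 0.21. SREBF1 (ENSG00000072310, chromosome 17, 17810399 to 17837002) was at 9.05, 8.78 and 9.71 FPKM in Era and at 8.20, 7.03 and 8.77 FPKM in Era+VK. It was the only member whose Era+VK libraries all lay below the Era libraries, by 0.01 FPKM between the nearest, with Era+VK 2 far the lowest (log2 fold change -0.18, standard error 0.08, adjusted p = 0.315 in limma). Without Era+VK 2 its log2 fold change was -0.10. SREBF1 shares exon bases with RAI1 on the opposite strand, listed at up to 8.67 FPKM. The ratio of SREBF1 to SREBF2 within a library, looked at after the values were seen, was 0.186, 0.202 and 0.205 in Era and 0.163, 0.163 and 0.173 in Era+VK. No library of one group reached the other (two-sided exact permutation p = 0.1, again the smallest possible), and the mean ratio was 0.198 ± 0.0106 in Era and 0.167 ± 0.00587 in Era+VK (SD, n = 3 each).

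SCAP (ENSG00000114650, chromosome 3, 47413694 to 47477126) was at 16.02, 14.96 and 15.40 FPKM in Era and at 17.02, 17.01 and 17.19 FPKM in Era+VK. Its Era+VK libraries were the closest of any member, with a range of 0.01 on the log2 scale, and all lay above Era (log2 fold change 0.14, standard error 0.04, adjusted p = 0.200 in limma). The 2 INSIG genes went opposite ways in their means. INSIG1, itself a known target of SREBP, was at 9.19, 7.44 and 9.83 FPKM in Era and at 10.55, 8.83 and 11.44 FPKM in Era+VK. The groups overlapped, with the second library the lowest of each (log2 fold change 0.20, standard error 0.11, adjusted p = 0.437 in limma). It was 0.095 without Era 2, 0.126 without Era+VK 3 and 0.296 without Era+VK 2. INSIG2 averaged 23.1 FPKM in Era against 21.8 FPKM in Era+VK, and its log2 fold change was -0.08 with a 95% interval from -0.21 to 0.05. It was -0.038 without Era 1 and -0.049 without Era+VK 1. The ratio of INSIG1 to INSIG2 was 0.328 to 0.443 in Era and 0.408 to 0.506 in Era+VK, with overlap (two-sided exact permutation p = 0.2).

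**Figure D3:**
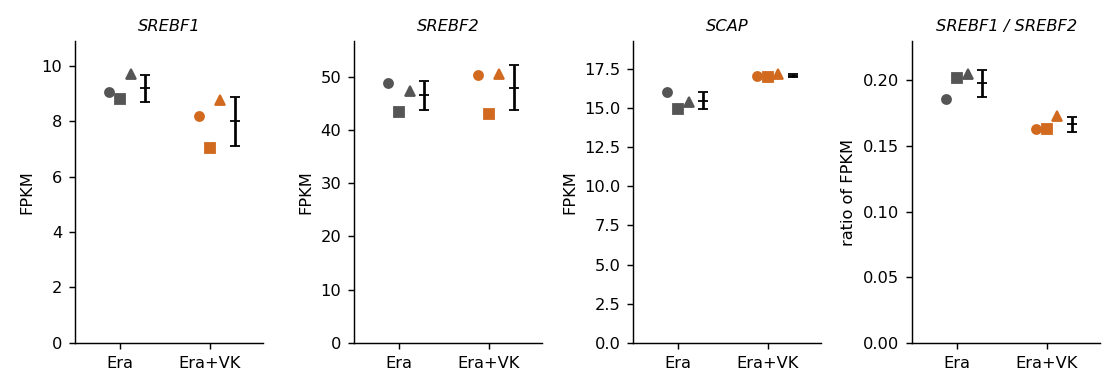
FPKM of SREBF1, SREBF2 and SCAP and the ratio of SREBF1 to SREBF2 in each library (circle, square and triangle for replicates 1, 2 and 3), with the mean and SD of each group (n = 3) in black and axes from 0. SCAP lies higher and the ratio lower in all 3 Era+VK libraries, at 17.0 to 17.2 FPKM and 0.163 to 0.173, whereas the groups overlap for SREBF2.

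Among the sterol transport genes, STARD4 (ENSG00000164211, chromosome 5, 111496033 to 111512590), a cytosolic cholesterol carrier, was at 7.23, 6.45 and 7.21 FPKM in Era and at 8.56, 7.52 and 8.68 FPKM in Era+VK. All Era+VK libraries were above Era, and Era+VK 2 was the nearest (log2 fold change 0.22, standard error 0.07, adjusted p = 0.201 in limma). Without Era+VK 2 its adjusted p in limma was 0.0914, the smallest of any member under any alternative. STARD4 overlaps its antisense RNA STARD4-AS1, listed at 1.94 to 2.87 FPKM. NPC1, the membrane sterol exporter of the lysosome, had a log2 fold change of 0.06 and NPC2 one of 0.02, both with overlapping libraries. NPC1 lay between 0.015 (without Era+VK 3) and 0.125 (without Era+VK 2). NPC2 was at 80.18 FPKM in Era+VK 2 and at 65.55 to 71.92 FPKM in the other 5 libraries. Without Era+VK 2, the log2 fold change of NPC2 was -0.07 and the median log2 fold change of the transport step was 0.13, against 0.06 with all libraries. It was 0.04 without Era 2 and 0.10 without Era 1.

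Many members ranked the libraries of a group alike, a pattern described after it was seen. Era 2 was the lowest Era library for 21 of the 28 members (75.0%) and for 35.9% of all genes tested, and Era 3 was the highest for 18 (64.3%) and for 31.5% of all genes. Era+VK 2 was the lowest Era+VK library for 17 members (60.7%) and for 37.4% of all genes. All 3 of these held for 11 members (39.3%) and for 7.46% of all genes tested. The 11 were ACAT2, MVD, IDI1, FDFT1, SQLE, LSS, CYP51A1, MSMO1, DHCR7, INSIG1 and SREBF1, of which 6 are sterol enzymes. For 20 of the 28 members the range over the 3 Era libraries was larger than the difference between the groups on the log2(FPKM + 1) scale. CYP51A1 had a range of 0.36 in Era against a group difference of 0.10, and MSMO1 one of 0.36 against 0.11. The reverse was so for 8 members, among them NSDHL (0.05 against 0.17), SCAP (0.09 against 0.14) and SC5D (0.04 against 0.11). The genes of 1 library share its culture, depth and composition, so these counts describe the libraries and carry no test.

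**Figure D4:**
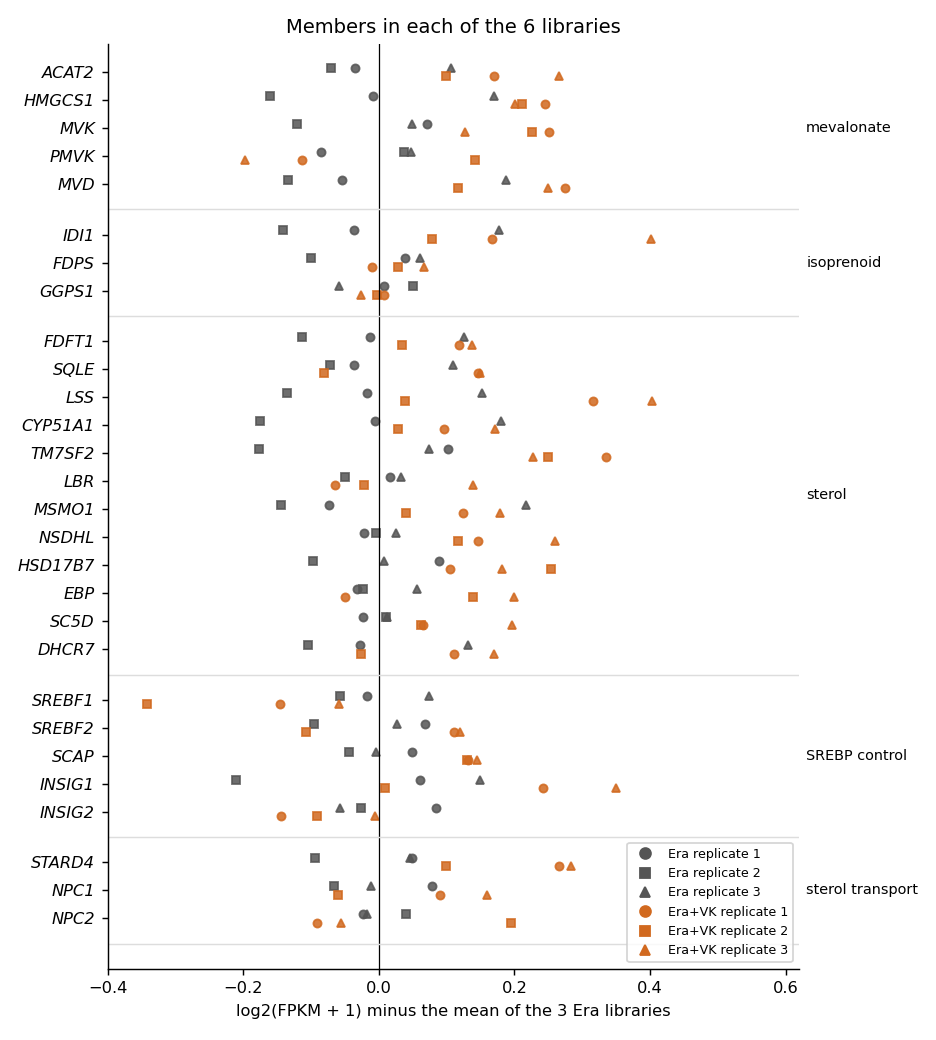
Each member's log2(FPKM + 1) in each library minus the mean of the 3 Era libraries, with Era in grey and Era+VK in orange. The grey squares (Era 2) are leftmost of the grey symbols for 21 of the 28 genes, and most orange symbols lie right of 0.

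By step, the median of the members against their Era means was lower in Era 2 than in the other Era libraries for each of the 5 steps, from -0.12 for mevalonate to -0.06 for SREBP control. For mevalonate enzymes it was 0.11 in Era 3 and 0.14 to 0.24 in Era+VK, so the groups did not overlap. For sterol transport it was at most 0.05 in Era and 0.09 to 0.16 in Era+VK. For sterol enzymes the groups overlapped, with 0.09 in Era 3 and 0.04 in Era+VK 2, and so did those of the isoprenoid and SREBP control steps. The same median over all genes tested was -0.004 to 0.008 in Era and 0.03 to 0.04 in Era+VK, so there too the groups did not overlap.

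**Figure D5:**
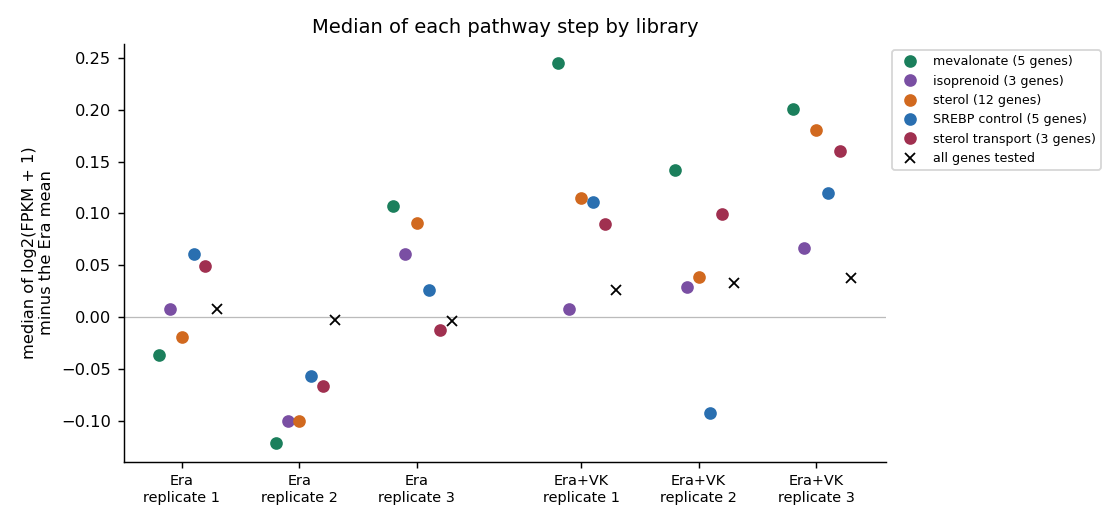
Median over the genes of each step of log2(FPKM + 1) minus the Era mean, by library, with all genes tested as crosses. The mevalonate step lies at 0.14 to 0.24 in Era+VK and the crosses stay between -0.01 and 0.04, while SREBP control is at -0.09 in Era+VK 2.

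Other genes of the pathway were read from 5 further lists. Of 64 genes, 59 passed the minimum, none passed the adjusted threshold, and 5 (8.47%) had an unadjusted p under 0.05 in limma against 15.8% of all genes. Their median log2 fold change was 0.04. Of 14 genes that process SREBP or sense sterols, 13 had a higher mean, with a median of 0.04. The site-1 protease gene MBTPS1 had a log2 fold change of 0.08 with groups that did not overlap, a value that missed the adjusted threshold. ERLIN1, a regulator of SREBP and INSIG in the endoplasmic reticulum, was at 22.88, 24.62 and 21.83 FPKM in Era and at 24.46, 25.60 and 25.79 FPKM in Era+VK. Era 2 exceeded the lowest Era+VK library, and its log2 fold change was 0.13 (adjusted p = 0.312 in limma). Of 16 genes that use isoprenoids, 9 had a higher mean and 7 a lower one. The smallest p of them was that of PDSS1, which builds the ubiquinone side chain, at 3.67, 3.70 and 3.50 FPKM in Era and 2.67, 3.46 and 2.52 FPKM in Era+VK. All 3 Era+VK libraries lay below Era, and its log2 fold change was -0.26 (adjusted p = 0.238 in limma).

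Of 14 fatty acid genes known as SREBP1 targets, 9 had a higher and 5 a lower mean in Era+VK, with a median of 0.05. ACSS2, an acetyl-CoA synthetase, had the smallest p of them, at 5.48, 6.04 and 5.81 FPKM in Era and at 6.06, 6.29 and 6.66 FPKM in Era+VK. Its groups did not overlap, though Era 2 and Era+VK 1 lay close (log2 fold change 0.11, adjusted p = 0.364 in limma). ELOVL6 went the other way with nearly the same unadjusted p in limma (0.0737 against 0.0726) and a log2 fold change of -0.13. All its Era+VK libraries lay below Era, the nearest at 7.75 and 7.78 FPKM. SCD, the stearoyl-CoA desaturase, had a log2 fold change of -0.17 with a 95% interval from -0.44 to 0.11. In sterol handling, 9 of 14 genes passed the minimum and all 9 had a higher mean, with a median of 0.08. OSBP, which exchanges sterol at the Golgi, was at 17.82, 15.79 and 17.41 FPKM in Era and at 19.12, 19.07 and 18.84 FPKM in Era+VK, without overlap (log2 fold change 0.15, adjusted p = 0.224 in limma). CH25H and CYP7B1, enzymes of oxysterols, did not pass 0.05 FPKM in any library. Of 6 further lipoprotein receptor genes and partners, 4 had a lower mean. SORT1, which encodes the sorting receptor sortilin, was at 22.59, 22.04 and 22.90 FPKM in Era and at 27.72, 24.90 and 26.42 FPKM in Era+VK. It had the smallest p of all genes in the 5 lists and of the members (log2 fold change 0.22, standard error 0.05, adjusted p = 0.113 in limma), with all Era+VK libraries above Era.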

How the data were processed

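The 3 Era and 3 Era+VK libraries were grouped by their titles; doses and times are from the study's methods. The authors deposited FPKM values per gene with 2 decimals and no counts. The submitters' processing notes name cutadapt, HISAT2, StringTie 2.1.6 and the mouse build mm10, while the identifiers are human Ensembl identifiers, so the build used is not settled, and the annotation is not given in the sources used here. Because FPKM share out the mapped fragments of each library, a few abundant genes shift the rest, and no counting error can be given.

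Every gene averaging 1 FPKM or more was tested in one fit in R 4.3.3 with limma 3.58.1 (intensity trend in the empirical Bayes step) on log2(FPKM + 1), a scale that understates changes of low genes. P-values were adjusted by Benjamini-Hochberg, and 0.05 was the threshold. On simulated data of Era+VK against Era with 11981 genes, 196 of 200 changed genes (log2 change 1) and 7 unchanged genes were called. The log2 fold changes of the members were at most 0.27, and recovery of changes of that size was not simulated. Alternatives were a pseudocount of 0.1 FPKM, other filters and scalings, a replicate block and libraries left out. All members are named; values in every library are given for members whose groups do not overlap and for the largest positive and negative difference of each step (the sterol and transport steps had no negative one), and of the further lists for the gene of smallest p. LSS, NPC2, the INSIG and SREBF ratios and other companion genes named were chosen after their values were seen. The members and lists were chosen with earlier results of these data known, so no list was tested.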

Additional observations from a re-analysis of the deposited data

How the results depend on the processing

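Under 13 alternatives, no member passed the adjusted threshold of 0.05 in limma, and of 364 fold changes of single members 350 kept their direction. The other filters and the replicate block cannot change a member's fold change, so their part of the 350 was fixed in advance. The 14 reversals were in 7 members. With single libraries left out, the log2 fold change ranged from -0.156 to 0.014 for PMVK, from -0.022 to 0.059 for FDPS, from -0.036 to 0.019 for GGPS1, from -0.043 to 0.059 for LBR, from -0.006 to 0.116 for SREBF2 and from -0.074 to 0.07 for NPC2. Without Era+VK replicates 2 and 3 together, where the lone Era+VK library is assumed to vary like the Era libraries, it was -0.01 for FDPS, 0.008 for GGPS1, -0.064 for LBR, -0.05 for EBP and -0.091 for NPC2. After quantile normalization it was -0.009 for LBR. The cause of these reversals was not tested. The median over the sterol transport step was 0.036 to 0.125 with single libraries left out, and that over all members 0.06 to 0.16.

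Over all genes 74 passed, against 1 with no filter, 122 with a minimum of 1 FPKM in every library, 112 after quantile normalization, 42 with the replicate block and 2 to 71 with 1 library left out. Quantile normalization lowered the median of all genes from 0.03 to 0.005, that of the members to 0.08 and the members with a higher mean to 23, and 52.1% of all genes then had a higher mean against 63.3%. Whether the replicate numbers pair libraries is not given in the sources used here. Deviations of same-numbered libraries correlated at 0.07, 0.10 and 0.02, and those of differently numbered ones at -0.114 to 0.04. Era 3 correlated better with Era+VK 1 (0.04) than with Era+VK 3. The replicate block cannot change fold changes in this balanced design, so the median of the members was 0.10 there too. Under it 11 members had an unadjusted p under 0.05 in limma, the smallest adjusted p being 0.141 (LSS). The share of all genes was not taken. These 11 were not the same as without the block. The unadjusted p in limma fell from 0.118 to 0.00557 for INSIG1 and from 0.0747 to 0.00318 for IDI1. It rose from 0.0456 to 0.0859 for HSD17B7 and from 0.0329 to 0.0501 for MVK. The lack of counts limits what can be said of MVK and HSD17B7, both under 2.1 FPKM.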
